A study of Mus musculus with 12 samples.

Results

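White and brown fat genes were followed in RNA from 12 mouse kidneys. The 10 genes were Adipoq, Ucp1, Cidea, Cidec, Fabp4, Plin1, Cfd, Retn, Pparg and Lpl, chosen by their wide spread over these same kidneys or as companions of those that spread widely. Their ranges and correlations are therefore descriptions and carry no test. Every array probe annotated with 1 of these symbols was taken, which gave 13 probes for 9 of the 10 genes, out of 19057 named genes on the array. No probe carried the symbol Cfd, so that gene, which encodes the secreted protease adipsin, was not analysed here. Of the 13 probes, 8 probes of 7 genes were above background on at least 6 of the 12 arrays and entered the test. The other 5 probes missed that filter and are given as levels only.

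All 12 mice were male, of the inbred strain C57BL/6J, and were sampled at postnatal day 28. The 6 ethanol kidneys came from offspring of dams given free access to 10% (v/v) ethanol until gestation day 8.5, beginning at fertilization, and the 6 control kidneys are labelled only as control. Levels are background-corrected, quantile-normalised log2 intensities of an Illumina array, on which a value near 4.5 is at background. The labels name no dam, litter or separate animal and do not say how fat around the kidney was handled at dissection, so the p-values speak only of variation among these 12 samples.

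Adipocytes store triglyceride in droplets and release fatty acids and hormones. White adipocytes hold a single large droplet, while brown adipocytes hold many small ones and burn fatty acids for heat through the uncoupling protein Ucp1 in their mitochondria. Fat lies against the kidney capsule and in the renal sinus, and in young rodents the depot around the kidney holds both brown and white adipocytes. Pparg is the nuclear receptor that drives the fat cell programme, and it binds DNA together with the retinoid X receptor at paired copies of a short half-site. In whole-tissue RNA, fewer fat cells and less RNA per fat cell cannot be told apart.

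The promoters of the general and the brown gene with the widest range are shown because these genes carry the pattern described below. Each is the 250 bases before the annotated RefSeq start in the build GRCm38.p6, on the + strand, with motif matches in capitals. The Adipoq window is chr16:23146286-23146535 and the Ucp1 window is chr8:83290098-83290347.
Adipoq: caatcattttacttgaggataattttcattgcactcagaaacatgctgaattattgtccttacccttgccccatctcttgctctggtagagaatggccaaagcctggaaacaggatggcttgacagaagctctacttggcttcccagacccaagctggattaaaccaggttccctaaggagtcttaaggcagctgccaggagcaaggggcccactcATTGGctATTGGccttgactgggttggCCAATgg
Ucp1: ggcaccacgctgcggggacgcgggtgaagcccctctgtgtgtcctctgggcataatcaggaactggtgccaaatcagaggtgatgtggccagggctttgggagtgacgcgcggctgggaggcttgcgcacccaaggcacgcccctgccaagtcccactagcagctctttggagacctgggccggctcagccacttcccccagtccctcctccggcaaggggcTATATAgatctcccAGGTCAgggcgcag
The motifs searched on both strands were the CCAAT box (CCAAT), the TATA box (TATAAA or TATATA) and the nuclear receptor half-site (AGGTCA). The Adipoq window held 3 CCAAT boxes, at 34 to 30 and 27 to 23 bases before the start on the minus strand and at 7 to 3 bases before it on the plus strand. The Ucp1 window held a TATA box at 28 to 23 bases and a half-site at 14 to 9 bases before the start. Of 32851 promoter windows of the same length, 33.8% held a CCAAT box, 15.6% a TATA box and 14% a half-site. The table held 10 starts for 7 of the 10 fat genes, of which 3 held a CCAAT box, 2 a TATA box and 3 a half-site. A match of these letters is a description and does not show binding.

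Adiponectin, the hormone that adipocytes secrete in the largest amounts, is encoded by Adipoq. Its level was 10.66, 10.54, 8.11, 9.19, 7.43 and 5.02 in control kidneys 1 to 6. In ethanol kidneys 1 to 6 it was 5.33, 9.82, 8.89, 10.84, 10.20 and 8.34. The signal was near background in a single kidney of each group, control 6 and ethanol 1, and high in controls 1 and 2 and in ethanol 4 and 5, so the groups overlapped. In the deposited intensities the same probe ran from 17.1 in control 6 to 1836.5 in ethanol 4. Its range of 5.82 on the log2 scale was the 13th widest of 23984 tested probes, whose median range was 0.93 and whose 95th percentile was 1.98.

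Ucp1, the proton carrier that makes brown fat mitochondria produce heat, spread still further. Its level was 8.65, 9.16, 6.73, 7.60, 6.28 and 4.53 in control kidneys 1 to 6. In ethanol kidneys 1 to 6 it was 4.70, 8.49, 7.50, 11.10, 9.83 and 7.79. The same control 6 and ethanol 1 were at background, and ethanol 4 and 5 were the highest, with the other kidneys of both groups between them. The range of 6.58 was the 9th widest of the tested probes. A value at background has no measured level, so ranges that start there are lower bounds.

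The lipid droplet genes followed. Cidea, a droplet protein abundant in brown fat, was above background on all 12 arrays. Its level was 9.25, 8.85, 6.41, 7.96, 6.00 and 5.42 in control kidneys 1 to 6 and 5.05, 7.54, 6.57, 9.67, 8.55 and 7.36 in ethanol kidneys 1 to 6. Cidec, the related protein that lets droplets grow into a single large one in white adipocytes, was at background in control 6 and ethanol 1. Its level was 7.60, 7.73, 5.47, 7.21, 5.16 and 4.83 in controls and 4.60, 6.45, 6.02, 9.01, 7.46 and 6.26 in ethanol kidneys, in the same order. Ranges were 4.62 for Cidea and 4.40 for Cidec, the 26th and 28th widest. Plin1, the perilipin that coats droplets and guards them from lipases, was above background on 4 arrays only, those of controls 1 and 2 and of ethanol 4 and 5, at 5.58, 5.43, 5.85 and 5.36. These are the 4 kidneys with the highest Adipoq. A second Plin1 probe was above background on 0 arrays.

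Fabp4, the fatty acid carrier of the adipocyte cytoplasm, had a narrower range of 2.04. It ran from 4.88 with a median of 5.54 to 6.57 in controls and from 5.20 with a median of 5.89 to 6.92 in ethanol kidneys. Its lowest value was in control 4, where it was at background although Adipoq stood at 9.19 and Cidec at 7.21 in that kidney. Plin1 was at background there, as on all but 4 arrays. Its normalised value of 4.50 was the lowest, but its deposited intensity of 5.29 was not, with -4.46 in ethanol 6. The array of control 4 had the lowest quality weight of the 12, at 0.266 against 0.524 to 1.85 on the others, and its part in these values was not tested.

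Pparg was well above background in every kidney and varied less than the genes above. Its brightest probe ran from 7.14 with a median of 7.70 to 8.39 in controls and from 7.31 with a median of 7.63 to 8.50 in ethanol kidneys. The highest and the lowest value fell in ethanol 4 and control 6, as for Adipoq, but they were only 1.36 apart. A second Pparg probe ran from 4.77 to 6.53 over the 12 kidneys and was again highest in ethanol 4, while the remaining probe was above background on 0 arrays.

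Lpl, the lipoprotein lipase that frees fatty acids from circulating triglyceride and is also made outside fat, was near the top of the array's scale in all 12 kidneys. It ran from 13.75 with a median of 14.33 to 14.67 in controls and from 14.39 with a median of 14.57 to 14.69 in ethanol kidneys. Its range of 0.94 was close to the median range of all tested probes, and without control 4, the lowest, it was 0.54. In the kidneys poorest in Adipoq, Lpl stood at 14.58 in control 6 and at 14.39 in ethanol 1, the lowest of the ethanol kidneys. Another Lpl probe was above background on 0 arrays. Retn, which encodes the hormone resistin of mouse white fat, was above background in control 4 and ethanol 6 only, at 5.41 and 5.14, and neither kidney was among the 4 richest in Adipoq.

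**Figure D1:**
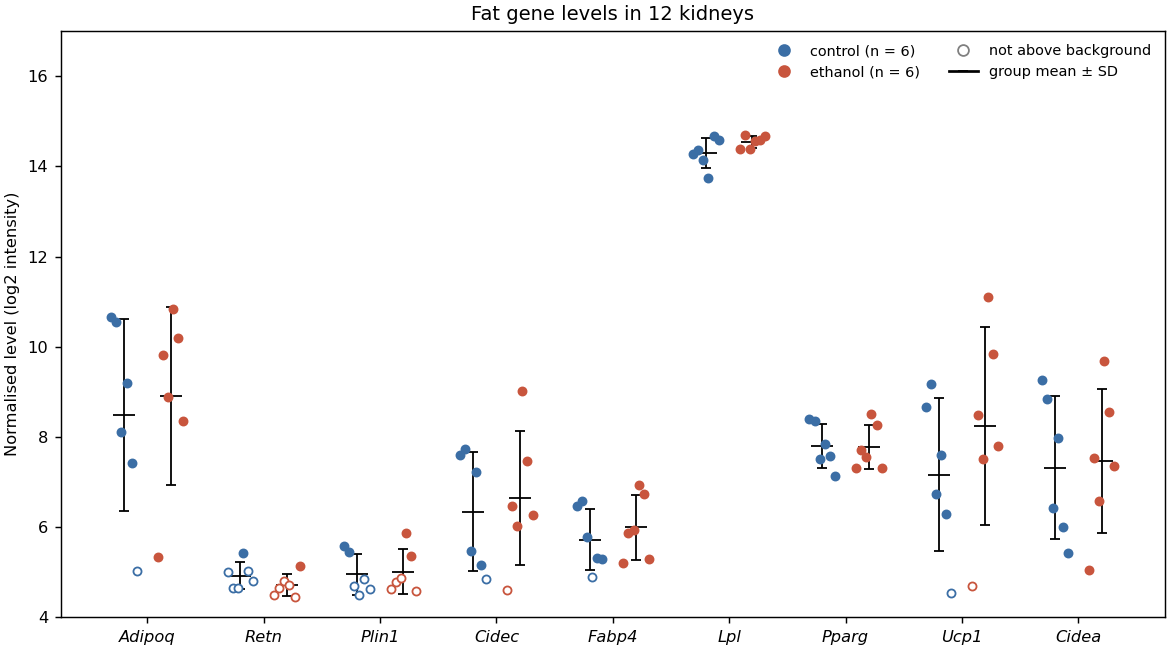
Normalised level (log2 intensity) of each of the 9 fat genes with a probe, brightest probe, 1 point per kidney for 6 control and 6 ethanol kidneys; open points are not above background, and bars show the group mean and SD. Adipoq and Ucp1 run from background to above 10 in at least 1 kidney, Lpl stays between 13.75 and 14.69, and the groups overlap for every gene.

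The genes with a wide range were high and low in the same kidneys. Among the 6 tested genes other than Lpl there are 15 pairs, and their Pearson's r over the 12 kidneys ran from 0.74 to 0.98 with a median of 0.90. Spearman's rho ran from 0.69 to 0.99. These values come from the arrays on which the genes were chosen, and every pair shares the same 12 libraries, so they describe the pattern without testing it. The tightest pair was Cidea and Cidec, at r = 0.98 (rho 0.99). Adipoq and Ucp1 had r = 0.95 (rho 0.95), and Adipoq and Cidea 0.93 (rho 0.98).

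Without control 6 and ethanol 1, the 2 kidneys farthest from the median of Adipoq, r between Adipoq and Ucp1 was 0.89, and it was 0.94 to Cidea, 0.91 to Cidec, 0.90 to Pparg and 0.79 to Fabp4. For the 15 pairs, each without the 2 kidneys farthest from the median of 1 of its genes, r ran from 0.59, for Cidec and Fabp4 without ethanol 1 and ethanol 4, to 0.98. It was present inside each group of 6: for the 15 pairs r ran from 0.55 to 0.99 in controls and from 0.80 to 0.99 in ethanol kidneys. The weakest pairs held Fabp4, with r = 0.74 to both Adipoq and Cidec, and without control 4 the value for Adipoq and Fabp4 was 0.86. Lpl stood apart, with r from -0.13 to 0.24 to the 6 others. For Adipoq and Lpl r was -0.45 in controls and 0.55 in ethanol kidneys. Plin1, with only 4 arrays above background, had r = 0.93 to Fabp4 and 0.71 to Adipoq, and Retn had 0.05 to Adipoq.

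**Figure D2:**
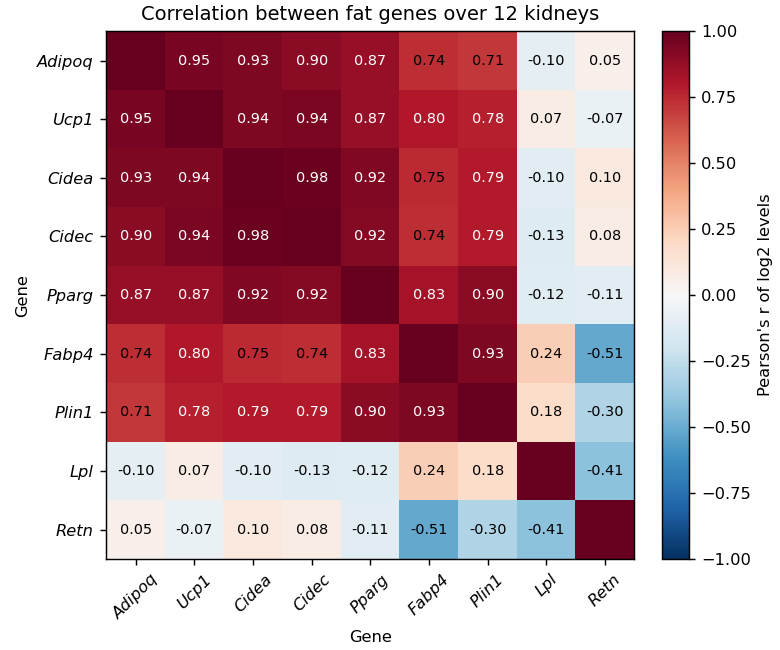
Pearson's r between the log2 levels of each pair of the 9 fat genes over the 12 kidneys, with genes on both axes and the value in each cell. The block from Adipoq to Plin1 holds values from 0.71 to 0.98, while the rows of Lpl and Retn hold values from -0.51 to 0.24.

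The summed linear level of the 9 adipocyte markers with a probe ran from 442 to 2721 in controls and from 459 to 3457 in ethanol kidneys. Since 6 of the 9 are the fat genes themselves, this sum restates their values. Among the 8 of 9 kidney markers with a probe, all above background on all 12 arrays, Umod, the uromodulin of the thick ascending limb, stayed between 14.93 and 15.29. The proximal tubule phosphate carrier Slc34a1 stayed between 15.59 and 15.90. The widest ranges among the 8 were those of Aqp2 (1.73, lowest in control 6), the podocyte gene Nphs1 (1.49, highest in control 6) and Slc12a1 (1.47, lowest in control 4), with r to Adipoq of 0.24, -0.34 and 0.25. The highest r to Adipoq was that of the distal tubule gene Slc12a3, at 0.59 within a range of 0.44. The summed level of these 8 had r = 0.04 to Adipoq. On the side of array quality, Adipoq had r = 0.14 to the percentage of probes above background (50.4% to 56.9% per array), -0.07 to the estimated background mean and 0.13 to the array weight. Correlations between whole arrays ran from 0.952 to 0.992.

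Brown and general fat genes were compared as deviations from each probe's own mean over the 12 kidneys, since intensities of different probes are not on a common scale. The mean deviation of the brown genes Ucp1 and Cidea ran from -2.57 to 1.46 in controls and from -2.67 to 2.85 in ethanol kidneys. That of the 7 general genes with a probe ran from -0.96 to 0.70 and from -1.01 to 1.05. The indices had r = 0.99 over the kidneys, and the brown index had the wider span. The general index averages Adipoq, which alone ran from -3.68 in control 6 to 2.14 in ethanol 4, with genes of narrow range. The brown minus general difference was 0.70, 0.80, -0.59, 0.27, -0.97 and -1.60 in controls 1 to 6 and -1.66, 0.34, -0.42, 1.79, 1.08 and 0.24 in ethanol kidneys 1 to 6. It was positive in the 6 kidneys with the highest Adipoq and in ethanol 6, and negative in the other 5. The size of this difference depends on which genes are averaged. With Adipoq, Cidec, Fabp4 and Pparg as the only general genes, its span over the 12 kidneys was 2.31 in place of 3.45. That choice left out flat Lpl and the dim Plin1 and Retn but kept the narrower Fabp4 and Pparg. The indices therefore do not show that brown genes move further than general ones.

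A closer comparison sets Ucp1 against Adipoq, the pair with the widest ranges. Controls 1 and 2 and ethanol 4 had like levels of Adipoq, at 10.66, 10.54 and 10.84, yet Ucp1 was 8.65, 9.16 and 11.10 in them. As deviations from their own means, Ucp1 minus Adipoq was -1.01, -0.38, -0.38, -0.59, -0.15 and 0.51 in controls 1 to 6. It was 0.36, -0.33, -0.38, 1.27, 0.63 and 0.45 in ethanol kidneys 1 to 6. The positive value of control 6 and that of ethanol 1 come from kidneys in which Ucp1 was at background and have no reliable size. The control mean was -0.33 ± 0.50 and the ethanol mean 0.33 ± 0.62 (SD, n = 6 each), and the groups overlapped. For Cidea minus Adipoq the means were 0.13 ± 0.79 in controls and -0.13 ± 0.79 in ethanol kidneys, and the highest value, 1.71, was that of control 6, where Adipoq was at background. The other 5 controls lay between -0.39 and 0.09, so the direction between the groups is not settled. No test was made of either index, since the genes were chosen on these values.

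**Figure D3:**
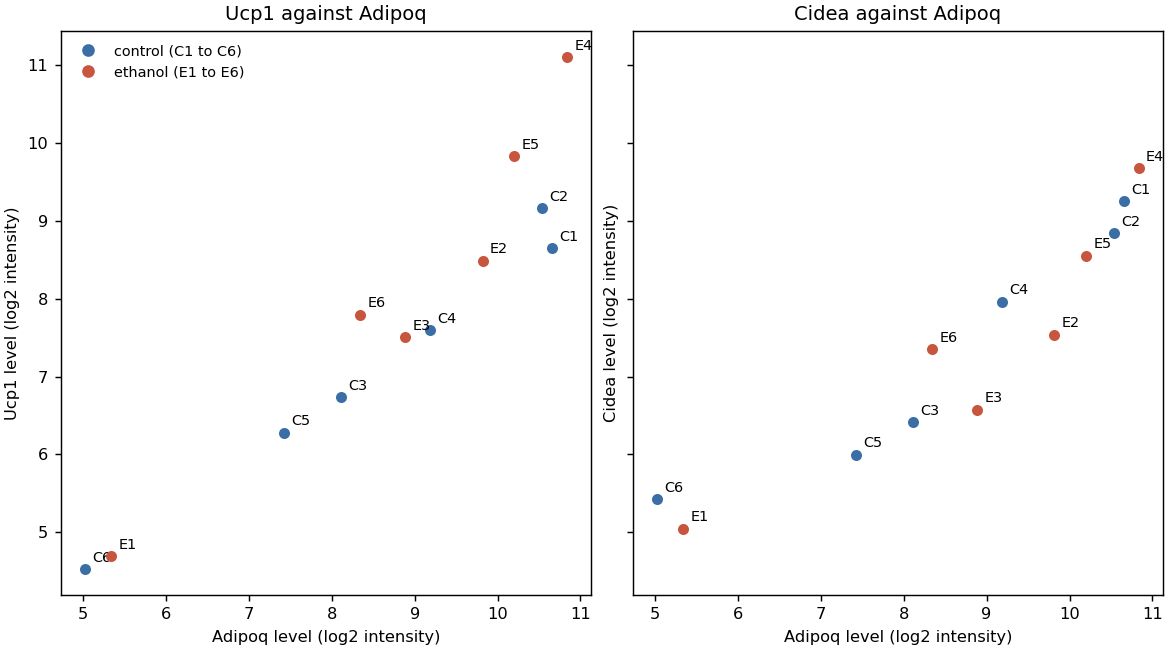
Ucp1 level (left) and Cidea level (right) against Adipoq level (log2 intensity), 1 point per kidney, labelled C1 to C6 for controls and E1 to E6 for ethanol kidneys. Points rise from control 6 and ethanol 1 at the lower left to ethanol 4 at the upper right, and at an Adipoq level between 10.54 and 10.84 the Ucp1 level differs by more than 2 between control 1 and ethanol 4.

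The question of the study was whether kidneys of ethanol-exposed offspring differ from controls, and for the fat genes no difference larger than the spread between kidneys was detected. In limma with Benjamini-Hochberg adjustment over all 23984 tested probes, 0 of the 8 fat gene probes were called at an adjusted p under 0.05, and 0% of all tested probes were. At an unadjusted p under 0.05 there were again 0 of 8, where 12.2% of all probes passed. In 0 of 8 the groups did not overlap, where this held for 0.484% of all probes. The differences were higher in ethanol kidneys for 6 of the 8 probes and lower for 2, and the median difference over all tested probes was 0.01.

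Adipoq was at 8.90 ± 1.97 in ethanol kidneys and 8.49 ± 2.13 in controls (SD, n = 6 each), a log2 difference of 0.41 ± 0.99 (SE) with a 95% interval from -1.70 to 2.53 (limma, adjusted p = 0.893). Ucp1 had the widest difference, 8.24 ± 2.19 against 7.16 ± 1.69, or 1.08 ± 0.95 (SE; 95% interval -0.95 to 3.10; limma, adjusted p = 0.661). Without ethanol 4 it was 0.50. Differences for Cidea and Cidec were 0.14 (limma, adjusted p = 0.958) and 0.30 (limma, adjusted p = 0.885), and both fell below 0, to -0.30 and -0.17, without ethanol 4. That of Adipoq fell to -0.28 without control 6 and rose to 1.13 without ethanol 1. Leaving out 1 kidney thus turned the direction for Adipoq, Cidea and Cidec, and also for the brightest Pparg probe (-0.17 to 0.09). The differences of Ucp1 (0.50 to 1.79), Fabp4 (0.09 to 0.44) and Lpl (0.13 to 0.32) stayed positive whichever kidney was left out. That of the second Pparg probe stayed negative (-0.40 to -0.05).

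The narrower genes gave tighter intervals. Lpl was at 14.54 ± 0.13 in ethanol kidneys against 14.30 ± 0.33 in controls, with a 95% interval of the difference from -0.06 to 0.55 (limma, adjusted p = 0.501). The difference was 0.13 without control 4. Pparg differed by -0.03, with an interval from -0.56 to 0.51 (limma, adjusted p = 0.977), and its second probe by -0.19 (limma, adjusted p = 0.772). For Fabp4 the difference was 0.27, with an interval from -0.46 to 1.01 (limma, adjusted p = 0.771). It was 0.09 without ethanol 4, 0.11 without control 4 and 0.44 without control 2. These intervals leave room for changes in both directions and do not show that the groups were alike.

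**Figure D4:**
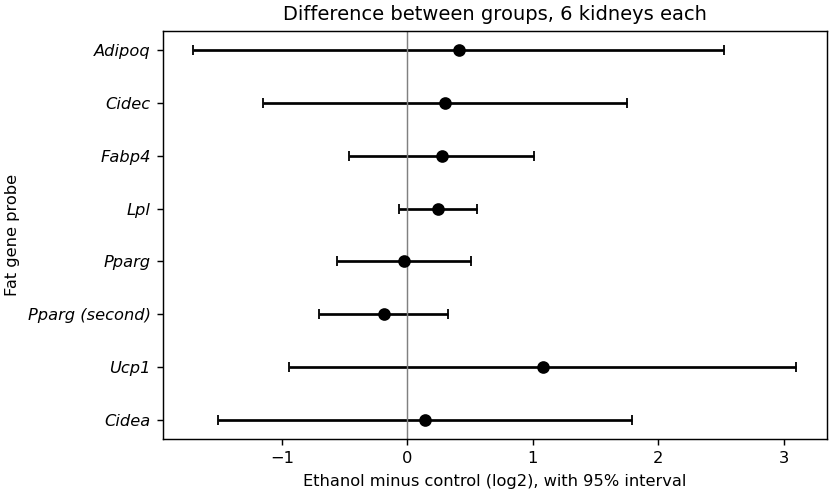
Log2 difference, ethanol minus control, of the 8 tested fat gene probes with its 95% interval from limma, 6 kidneys in each group. All 8 intervals include 0, and those of Adipoq, Ucp1, Cidea and Cidec are several times as wide as that of Lpl.

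The genes whose pattern lay nearest to Adipoq and to Ucp1 were sought among 12192 other named genes by Pearson's r over the 12 kidneys. For Adipoq these were Cox8b (r = 0.99), Mrap (0.93), Plin4 (0.93), Adig (0.92), Ptprb (0.92), Natd1 (0.91), Scd1 (0.91), Nrg4 (0.90), Thrsp (0.90) and Prkar2b (0.90). For Ucp1 the list was Nrg4 (0.96), Cox8b (0.96), Plin4 (0.95), Mrap (0.95), Adig (0.94), Scd1 (0.94), Ffar4 (0.93), Adgrf5 (0.92), Thrsp (0.92) and Ppp1r3b (0.92). The lists share 7 of their 10 genes. Over 12199 named genes, the fat genes included, the median r to Adipoq was 0.01, and 1.91% had r over 0.7.

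Cox8b, a cytochrome c oxidase subunit made in brown fat, heart and skeletal muscle, ran from 4.99 in control 6 to 11.995 in ethanol 4. Its range of 7.0 is a lower bound, since it was at background in control 6. Plin4, a droplet coat protein, ran from 4.85 to 8.79 between the same 2 kidneys, and Thrsp, a regulator of fatty acid synthesis, from 5.17 in control 5 to 9.08 in ethanol 4. Nrg4, a growth factor that brown fat secretes, ran from 4.94 in ethanol 1 to 7.22 in ethanol 4. Scd1, the desaturase that makes monounsaturated fatty acids, ran from 12.18 in control 6 to 14.38 in ethanol 4. Adig, an adipocyte gene, and Mrap, a partner of the melanocortin receptors in adrenal and fat cells, were likewise highest in ethanol 4.

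Ptprb and Adgrf5 are genes of the vessel wall and moved little, by 0.70 and 1.07 in all. Of 6 tested endothelial markers, 0 had r over 0.7 to Adipoq. Their r ran from -0.10 for Tie1 to 0.69 for Cdh5, and their summed level had 0.33. Ffar4, a receptor for long-chain fatty acids, Ppp1r3b, which targets a phosphatase to glycogen, and Prkar2b, a regulatory subunit of protein kinase A, had ranges of 2.73, 2.76 and 3.66. All were highest in ethanol 4, as were 12 of the 13 genes in the 2 lists, Natd1 being the exception with its highest level in control 1. None of the 13 was called between the groups in limma (adjusted p from 0.511 for Ffar4 to 0.968 for Natd1).

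**Figure D5:**
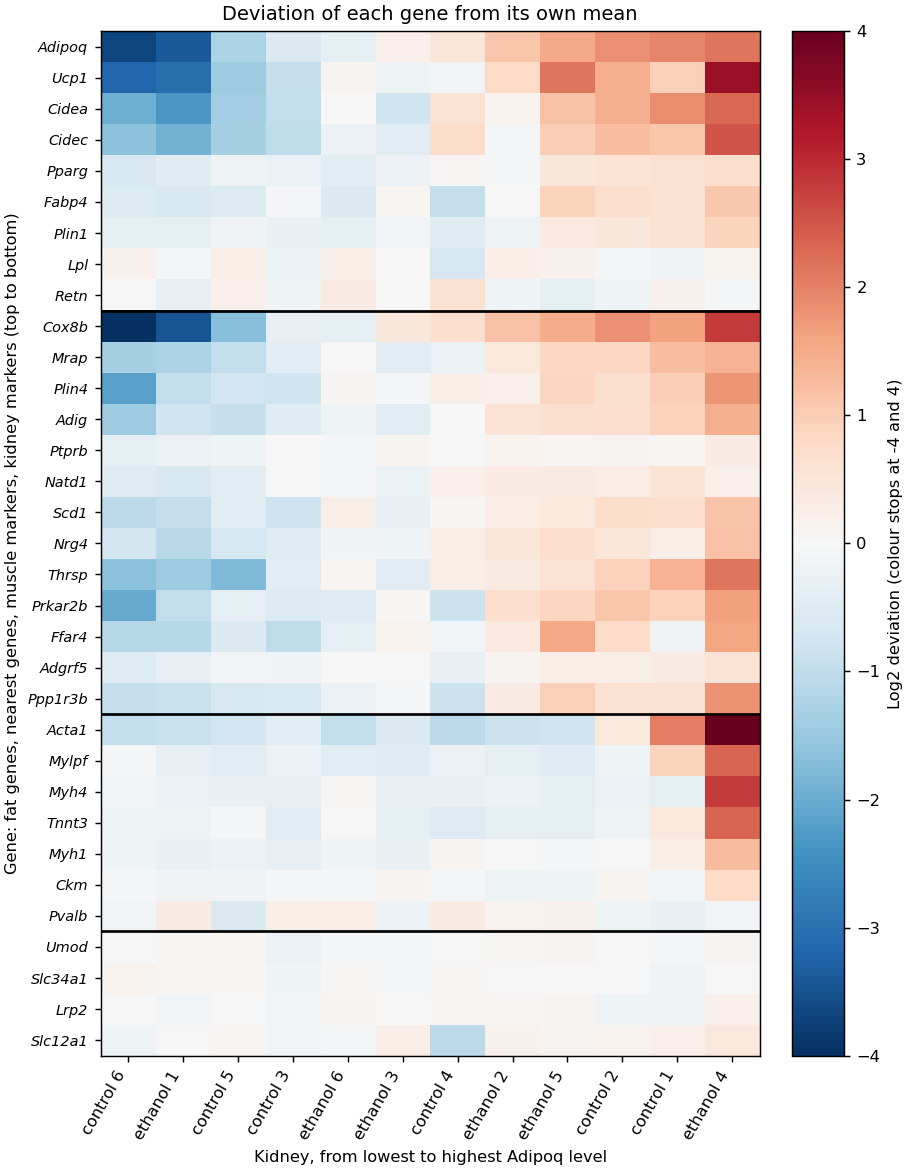
Log2 deviation of each gene from its own mean over the 12 kidneys, with kidneys ordered from the lowest to the highest Adipoq level; rows hold the 9 fat genes, the 13 nearest genes, 7 skeletal muscle markers and 4 kidney markers. Colour runs broadly from blue to red along the order in Adipoq, Ucp1, Cidea and Cidec and in nearest genes with a wide range, such as Cox8b. Genes with a narrow range, such as Pparg, Plin1, Ptprb, Adgrf5 and Natd1, show little colour on this scale. The muscle markers other than Pvalb are highest in ethanol 4, and Umod, Slc34a1 and Lrp2 stay pale.

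Other genes of fat cells, from lists drawn up for this tissue, divided into those that moved with Adipoq and those that did not. Of 31 tested genes active widely in fat, 8 had r over 0.7 to Adipoq, and the median r was 0.32. These were Plin4, Scd1, Thrsp, the triglyceride lipase gene Pnpla2 (r = 0.84), the monoglyceride lipase gene Mgll (0.77), the caveolin gene Cav1 (0.77), the acyltransferase gene Agpat2 (0.72) and the leptin gene Lep (0.71). Lep was above background on 6 arrays and peaked in control 1 at 6.29, not in ethanol 4, where it was 5.43. The carbonic anhydrase gene Car3 (range 3.75) and the retinol carrier gene Rbp4 (range 3.71) had r = 0.56 and 0.40, and Rbp4 was highest in ethanol 6. The hormone-sensitive lipase gene Lipe had r = -0.15. Between groups, 16 of the 31 were higher in ethanol kidneys and 15 lower, with a median difference of 0.01 and 0 called in limma. At an unadjusted p under 0.05 there was 1 of the 31, where 12.2% of all tested probes passed. It was the triglyceride synthesis gene Dgat2 at -0.49 (limma, adjusted p = 0.401).

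Of 15 tested genes tied to brown fat, 3 had r over 0.7 to Adipoq, namely Cox8b, the potassium channel gene Kcnk3 (0.84) and the fatty acid importer Cpt1b (0.76), and the median r was 0.53. Tested genes of the brown programme not over 0.7 had r from -0.07 for Acot2 to 0.67 for Cox7a1. Cox7a1 had a range of 0.96 and was highest in ethanol 4. The transcription factor gene Prdm16 had r = 0.62 within a range of 0.73, and Ppargc1a 0.57 within 0.53. Elovl3 and Zic1 were above background on 1 array each, and the highest level of Elovl3, 5.73, was in ethanol 4. No probe carried the symbol Otop1. The orphan receptor gene Esrrg, also active in kidney tubules, had r = -0.02. Between groups, 11 of the 15 were higher in ethanol kidneys and 4 lower, with a median difference of 0.06 and 0 called in limma. Dio2, the deiodinase that activates thyroid hormone in brown fat, was at 6.36 ± 0.52 in ethanol kidneys against 5.60 ± 0.36 in controls (SD, n = 6 each), a difference of 0.76 with an unadjusted p of 0.00507 and a limma adjusted p = 0.379. Its r to Adipoq was 0.10. It was the only 1 of these 15 genes at an unadjusted limma p under 0.05, where 12.2% of all tested probes passed.

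Most droplet and carrier relatives of the fat genes had r under 0.7 to Adipoq. Of 5 tested droplet proteins, only Plin4 had r over 0.7 to Adipoq, while Plin2 (r = 0.13) and Plin5 (0.16) did not, and Cideb, the CIDE protein of liver, had -0.59. Among fatty acid binding proteins, Fabp3, Fabp5 and Fabp7 were tested, with r of 0.54, 0.65 and -0.47, and Fabp1 and Fabp2 were above background on 0 arrays. Of 6 tested genes tied to white fat depots, Retnla (0.78) and Lep were over 0.7, and Tcf21, a transcription factor gene of white fat progenitors and of the kidney stroma, had 0.07. Tcf21 differed by -0.49 between the groups at an unadjusted p of 0.00669 (limma, adjusted p = 0.379), and 5 of these 6 genes were lower in ethanol kidneys. Tcf21 was the only 1 of the 6 at an unadjusted limma p under 0.05, where 12.2% of all tested probes passed. Hoxc8 was above background on 4 arrays and Ucp3, the muscle relative of Ucp1, on 0. These 3 lists held 0 calls in limma.

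Markers of skeletal muscle were high in the kidney richest in Ucp1. Of 8 markers 7 had a probe and 2 were tested, and the muscle genes below were singled out after their values were seen. Acta1, the skeletal alpha-actin gene, stood at 10.31 in ethanol 4, 7.54 in control 1, 5.91 in control 2 and 5.07 in control 3, and it was not above background in the other 8 kidneys. Mylpf, a fast myosin light chain gene, was at 9.00 in ethanol 4 and 7.57 in control 1, and Myh4 was above background only in ethanol 4, at 7.54. The summed level of the 7 ran from 1277 to 2207 in controls and from 1567 to 3705 in ethanol kidneys. Pvalb, which distal tubules also make, is part of that sum, ran from 10.08 to 10.97 and was highest in ethanol 1. Cox8b, Cox7a1 and Fabp3 are made in muscle too. The part of muscle RNA in the high values of ethanol 4 was not tested. Ethanol 5, second highest in Ucp1 at 9.83, had Acta1 at background. Without ethanol 4, r between Adipoq and Ucp1 was 0.97 and the range of Ucp1 was 5.30.

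Markers of other tissues that a kidney sample can hold were summed in the same way. The summed level of 3 mesothelial markers, of 4 listed, had r = 0.63 to Adipoq. It ran from 194 to 602 in controls and from 234 to 506 in ethanol kidneys. Upk3b, the brightest of the 3 at 7.13 to 9.09, dominates this sum and alone had r = 0.63. Msln ran from 4.67 to 5.77 with r = 0.57, and Lrrn4, above background on 1 array, had -0.31. The summed level of 5 urothelial markers had r = 0.52, and that of 4 red cell markers, of 5 listed, 0.58. Among the red cell markers the anion exchanger gene Slc4a1 had r = 0.76 (rho 0.87), above that of Fabp4, within a range of 1.01. Alas2, Hbb-b2 and Hba-a1 had lower r of 0.46, 0.40 and 0.53 (rho 0.26, 0.16 and 0.25). Hba-a1, the brightest of the 4 at 14.89 to 15.83 and lowest in ethanol 1, dominates the red cell sum. The adrenal genes Star and Hsd3b1 were above background on 0 arrays, and the summed level of all 7 adrenal cortex markers had r = -0.16. The part of these tissues in the fat gene values was not tested.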

How the data were processed

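Total RNA from 12 kidneys (6 control, 6 ethanol) carried a biotin label and was hybridised to Illumina arrays of 45281 probes, 1 array per sample, with RNA integrity numbers of 8 to 9 per the labels' protocols. The deposited values are linear probe intensities, from GenomeStudio per the submitters' processing notes, and values below 0 show that background had been subtracted. The sources used here do not give the software's version or any scaling. A second table was not used because its 24 value columns match no sample label, so the planned detection p-values and negative controls were replaced by an estimate from the deposited intensities. The background mean of an array was the peak of its kernel density (bandwidth 2, below the 0.6 quantile), and the background SD was the spread under that peak. A normal-exponential correction with an offset of 16, quantile normalisation and log2 followed (limma 3.58.1, R 4.3.3, statmod 1.5.0).

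A probe was above background at a normal probability under 0.05 and was tested if above background on at least 6 of 12 arrays. The offset shrinks differences of dim probes, and the number of arrays limits the precision. Groups were compared with lmFit and eBayes, without covariates, over all 23984 tested probes. The code was tested on simulated data. A gene was represented by its brightest probe. Symbols came from the platform annotation (1 symbol for 34885 probes, several for 18, none for 10378). Probes with several symbols named no gene. No slide or scan batch is labelled. The labels do not say that replicate numbers pair samples. Deviations of same-numbered samples correlated at 0.00090 to 0.465, and not every control matched its own number best. These values cannot exclude a pairing, such as a shared litter or batch.

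The fat genes and the gene lists were chosen with earlier results of these data known. Named genes were all 10 fat genes, the 10 others nearest to Adipoq and to Ucp1 by Pearson's r, and the 4 of each fat gene list with the widest range. Others were named to make up a count or after their values were seen. Promoters came from RefSeq (GRCm38.p6). The alternatives were a 50 offset, median scaling, leaving out the background correction, log2 of the deposited values with a floor of 16 and no normalisation, other filters, averaged probes, array weights, a trended prior, a replicate block and each array left out.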

Additional observations from a re-analysis of the deposited data

Results flagged for a closer look

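Dixon's ratio divides the gap between 1 kidney and the next by the range of its group of 6. It was taken for the tested fat genes, the nearest genes and up to 4 tested genes of each list with the widest range. Of these 136 groups, 7 passed the 95% critical value. Unselected genes would give about 1 in 20 by chance. These genes were picked by their range or their r to Adipoq, so the shares cannot be compared. None of the 7 tested fat genes was flagged, while Plin1 and Retn were not examined in this way. Mylpf, a fast muscle myosin light chain gene, was at 9.00 in ethanol 4 against 6.16 to 6.33 in the other ethanol kidneys (ratio 0.939), and at 7.57 in control 1 against 6.26 to 6.63 in the other controls (ratio 0.718). Cox7a1, a cytochrome c oxidase subunit gene of muscle and brown fat, was at 11.54 in ethanol 4 against 10.66 to 10.91 (ratio 0.706). These 2 kidneys were also among the highest in Adipoq.

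In control 4 the tubule genes Esrrg and Slc12a1 were low, at 10.18 against 11.25 to 11.67 (ratio 0.716) and 13.52 against 14.43 to 14.80 (ratio 0.708). Aqp2, the water channel of the collecting duct, was at 8.20 in control 6 against 9.39 to 9.93 in the other controls (ratio 0.686). Lyz2, a macrophage lysozyme gene, was at 9.00 in ethanol 6 against 10.03 to 10.44 (ratio 0.718).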

How the results depend on the processing

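No fat gene probe was called under any alternative run. All tested probes gave 0 calls except with the deposited values as they stand, where 2 were called, Apool at 0.94 (limma, adjusted p = 0.0299) and an unnamed probe. The number of probes at an unadjusted p under 0.05 was 2923, and 1833 to 3804 with 1 kidney left out (1833 without ethanol 2, 1849 without ethanol 3). A replicate block left 0 calls, gave 3557 probes at an unadjusted p under 0.05 and changed no other call (Adipoq: limma, adjusted p = 0.878). The run without the normal-exponential correction raised deposited intensities below 1 to a floor of 1. Ucp1 in control 6 (0.45) and Cidec in ethanol 1 (0.79) lay under that floor. In that run Cidec turned to -0.016, the range of Ucp1 became 11.02 and that of the brown minus general difference 5.12. The latter was 2.31 with 4 general genes, chosen after seeing the data. With array weights Pparg turned to 0.035. With 1 kidney left out, differences ran from -0.28 to 1.13 for Adipoq, -0.17 to 0.71 for Cidec, -0.17 to 0.093 for Pparg, -0.30 to 0.62 for Cidea and 0.09 to 0.44 for Fabp4. For Adipoq and Ucp1 r was 0.99 in controls alone and 0.89 without the 2 farthest kidneys. For Adipoq and Lpl it was 0.55 in ethanol kidneys alone and -0.17 to 0.013 with 1 kidney left out. The cause of these changes was not tested. Dim probes are limited by their signal over background.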

Other observations

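Cd3d and Cd3e, which encode chains of the T cell receptor complex, were highest in control 6, the kidney with the lowest Adipoq, at 6.68 and 7.31. In the other kidneys Cd3d lay between 4.47 and 5.86 and Cd3e between 5.06 and 6.24. Their r to Adipoq was -0.84 and -0.58, chosen after the values were seen and given as a description with n = 12. Of the 4 tested genes of the lymphocyte list, the others were the B cell gene Cd79b, with r = 0.05, and the chemokine gene Ccl21a, with 0.19. Over all 12199 named genes, 0.762% had r under -0.7.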
